A study of Homo sapiens with 6 samples.

Results

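Complex I of the respiratory chain is built in part from subunits that are encoded in the nucleus, and 36 genes of this kind, named NDUF with letters and a number, are described here out of 57500 genes counted. They were chosen by name, as a listed set of subunit genes, and all 36 were found in each of the 6 count tables. RNA came from mitochondria isolated with a kit from HepG2 cells, an established liver carcinoma line of human origin that keeps many hepatocyte functions. The cells, wild type per the labels, had been exposed for 48 h to GenX, a short-chain perfluoroalkyl ether acid, at 10 or 100 µM, and the controls (0 µM) received only DMSO, the vehicle. Each of these 3 groups had 2 libraries, all labelled batch 1, made from TRIzol-extracted, ribosomal RNA-depleted total RNA with a stranded workflow. The labels do not say whether the 2 libraries of a group came from separate cultures, so p-values reflect the spread of these samples alone, and that spread may be technical.

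Complex I takes electrons from NADH, passes them to ubiquinone and pumps protons across the inner mitochondrial membrane. Its NADH module and ubiquinone module form the arm that reaches into the matrix, and its membrane arm does the pumping. The catalytic core is shared with bacteria, the supernumerary subunits surround it, and mitochondrial DNA (mtDNA) encodes the hydrophobic core of the membrane arm. The nuclear transcripts are translated in the cytosol and the proteins imported, so in a mitochondrial preparation their RNA is RNA found with the organelle, not made in it.

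The libraries differed strongly in depth and make-up, which bears on every value below. Totals were 240683 and 60854 counts for the control pair, 43556 and 29350 for the 10 µM pair, and 2141282 and 1338397 for the 100 µM pair. Counts on nuclear genes numbered 230210 and 54502, then 24505 and 11406, then 2064527 and 1293961. The share of counts on mtDNA genes was 43.7% and 61.1% in the 10 µM libraries and between 3.32% and 10.4% in the others. Values are therefore given as raw counts, as counts per 1000000 nuclear-gene counts (nCPM), or as a share of the nuclear-gene counts. A gene with 0 counts is treated as lying under 3 counts, a level equal to 13.0 and 55.0 nCPM in the control libraries, 122 and 263 with 10 µM GenX, and 1.45 and 2.32 with 100 µM. Such limits, and the exact 95% binomial or counting intervals below, cover counting error only. Markers of hepatocytes summed to 6260 and 17137 nCPM for the control pair, 775 and 351 for the 10 µM pair, and 11483 and 11173 for the 100 µM pair. Of the 12 markers 7 and 7, 7 and 2, and 11 and 10 had a count, and the fetal liver marker AFP was at 0 in both controls and both 10 µM libraries. Markers of fibroblasts, leukocytes and endothelial cells summed to between 0 and 789 nCPM per list in any library. In the second 10 µM library the fibroblast markers reached 789 nCPM (9 counts) and the leukocyte markers 351 (4 counts). Hepatocyte markers there also had 4 counts, while in the other libraries they exceeded each of these lists. Of the 4 leukocyte markers PTPRC and CD3E were at 0 throughout, LYZ had counts in every library, and CD14 in both 100 µM libraries. The nuclear RNA MALAT1 took 14.1% and 5.15% of nuclear-gene counts for the control pair, 0.0694% and 0.114% for the 10 µM pair, and 2.99% and 2.69% for the 100 µM pair. In bulk samples of this kind, fewer cells of a type and less RNA per cell cannot be told apart.

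Taken as a pool, the 36 subunit genes made up a larger share of nuclear-gene RNA at 100 µM than at 10 µM, and the controls lay on both sides of the 100 µM pair. Control 1 held 361 subunit counts, 0.157% of its nuclear-gene counts (0.141 to 0.174), and control 2 held 771, or 1.41% (1.32 to 1.52). At 10 µM there were 19 counts, 0.0775% (0.0467 to 0.121), and 21 counts, 0.184% (0.114 to 0.281). At 100 µM there were 7245 counts, 0.351% (0.343 to 0.359), and 5057 counts, 0.391% (0.380 to 0.402). The 100 µM pair stood close together and above both 10 µM libraries, while the controls differed from each other by more than any other pair of replicates. Averaged by group, the share was 0.786% ± 0.889 (SD, n = 2) for control libraries, 0.131% ± 0.0754 for 10 µM libraries and 0.371% ± 0.0282 for 100 µM libraries. The 100 µM mean was 2.83 times the 10 µM mean. The means stood at 0.167 times control for 10 µM and 0.472 times control for 100 µM, and in both of those comparisons the libraries of the groups overlapped. With the counts of both libraries of a group summed first, which gives the deeper library more weight, these ratios were 0.280 and 0.921, and that of 100 to 10 µM was 3.29. Hepatocyte markers and MALAT1 (values above) had their lowest levels in the 10 µM libraries, and their part in the result was not tested. The 3 comparisons share libraries and are not independent of each other.

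**Figure D1:**
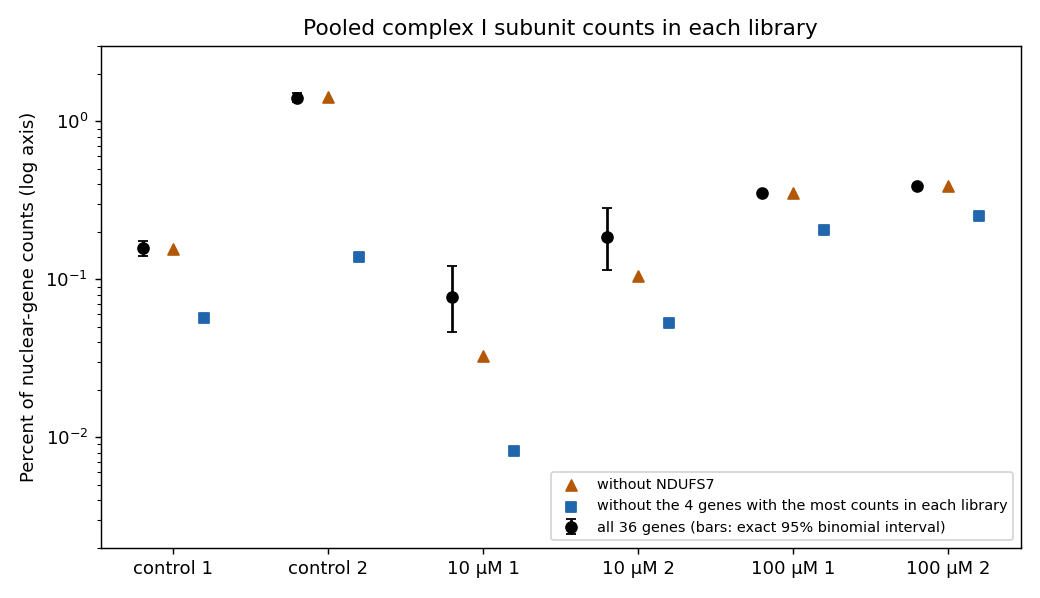
Share of nuclear-gene counts taken by the 36 subunit genes in each library (log axis, percent), with exact 95% binomial intervals, beside the share without NDUFS7 and without the 4 subunit genes with the most counts in that library. The 100 µM libraries lie at 0.351% and 0.391%, above both 10 µM libraries, and control 2, at 1.41% in full, lies at 0.138% without its 4 leading genes.

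The high value of control 2 rested on a few genes. In that library 4 of the 36 genes, NDUFB9, NDUFA1, NDUFB7 and NDUFS3, held 90.3% of the subunit counts. The 4 leading genes of control 1 held 64.0%, and those of the 100 µM libraries 41.5% and 35.9%. Without the 4 leading genes of each library the shares were 0.0565% and 0.138% in the control libraries, 0.00816% and 0.0526% with 10 µM GenX, and 0.205% and 0.251% with 100 µM. This measure, chosen after the data were seen, takes different genes out of each library and lowers control 2 the most by construction, so it describes the concentration of counts and is no comparison of the groups. With control 2 left out and all 36 genes kept, the 100 µM mean was 2.37 times control 1.

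Evenness within the set was also highest at 100 µM. The number of equally abundant genes that would give the same spread of counts (the inverse Simpson number in its unbiased form) was 7.42 and 3.60 for the control pair, 2.95 and 5.25 for the 10 µM pair, and 14.2 and 17.0 for the 100 µM pair. At 100 µM the subunit RNA was thus spread over the most members, and in each other library a handful of genes supplied most of it. The 10 µM numbers rest on 19 and 21 counts and largely on NDUFS7. Without this gene, singled out for its 10 µM counts, they were 9.33 and 16.5, from 8 and 12 counts. The 100 µM numbers were then 14.1 and 17.0, so the doses overlapped.

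**Figure D2:**
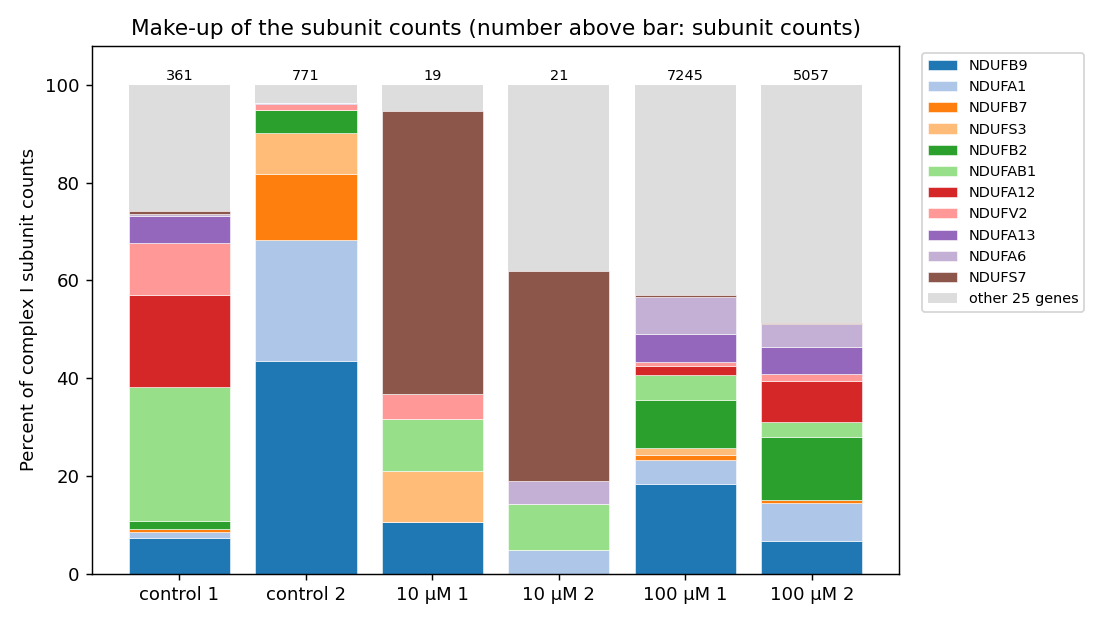
Percent of the subunit counts of each library that came from 11 named subunit genes and from the other 25 together; the number above each bar is the library's subunit count. NDUFS7 fills 57.9% and 42.9% of the 10 µM bars, NDUFB9 43.5% of the control 2 bar, and the 100 µM bars are divided among many genes.

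Detection followed the depth in part. Of the 36 genes 28 and 18 had a count in the control libraries, 6 and 10 with 10 µM GenX, and 36 and 33 with 100 µM. With every library taken down to the shallowest nuclear total of 11406 counts, the expected numbers were 8.78 and 10.5, then 4.07 and 10, then 17.9 and 18.6. The 100 µM libraries would therefore still have shown more members than any other library at equal depth. Over all nuclear protein-coding genes the same calculation gave 12.2% and 11.8% detected for the control pair, 13.4% and 12.6% for the 10 µM pair, and 18.3% and 17.6% for the 100 µM pair. The corresponding shares of the subunit genes were 24.4% and 29.1%, 11.3% and 27.8%, and 49.9% and 51.5%.

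Counted gene by gene, 10 of the 36 members (27.8%) were lower in both 10 µM libraries than in both controls, against a background of 14.2% of the 13722 nuclear protein-coding genes with a count. NDUFS7 was the 1 member higher in both, where the background was 4.31%. Between 100 µM and control, 18 members (50%) were higher without overlap against a background of 31.4%, and 3 were lower (NDUFA7, NDUFB10 and NDUFV2) against 5.53%. Between 100 and 10 µM, 25 members (69.4%) were higher without overlap against 42.3%, and NDUFS7 alone was lower, against 3.37%. Among the 43 nuclear genes of complexes II to V, a set described below, 18 (41.9%) were lower at 10 µM than in the controls. There 27 (62.8%) were higher at 100 µM than in the controls, and 34 (79.1%) higher than at 10 µM. In these 3 comparisons 3, 0 and 1 of the 43 went the other way. The difference from the subunit genes was not tested. A gene at 0 in a shallow library counts as lower here, for members and background alike. The depth of the 10 µM libraries and of control 2 therefore enters these counts. In control 2 the level of 3 counts is 55.0 nCPM, which 15 members passed in both 100 µM libraries. Of the 18 members higher than control, NDUFA2, NDUFA3, NDUFA5, NDUFA8, NDUFA9, NDUFB1, NDUFB5, NDUFB11, NDUFS1 and NDUFV1 did not pass it in both. Statements below that a member was higher at 100 µM than in both controls carry this limit. NDUFB2 was the only member whose level at 100 µM passed 263 nCPM, the level of 3 counts in the shallower 10 µM library, in both 100 µM libraries. In both controls 0 members passed it. The 10 members lower at 10 µM than in the controls are thus not resolved by this limit.

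In edgeR's quasi-likelihood test, with Benjamini-Hochberg adjustment over the 3180 genes tested, none of the 36 subunit genes passed an adjusted p of 0.05 in any comparison. Only 17 of them had enough counts to be tested. The common dispersion, a measure of the spread between replicates, was 0.882, and in simulated data with a spread near this the test missed most changes, large ones included, so the absence of calls does not show that levels were alike. At 10 µM against control 0 were called, where the background was 0.597% of all genes tested. There 4 had an unadjusted p under 0.05 (1 higher, 3 lower), against 28.1% of all genes. DESeq2's Wald test on the same genes called 3, with NDUFA1 and NDUFB9 lower and NDUFS7 higher, against 16.5% of all genes. At 100 µM against control 0 were called (background 0%), and 2 had an unadjusted p under 0.05, both higher (NDUFA6 and NDUFB8), against 18.1%. DESeq2 there called NDUFV2, lower, against a background of 6.92%. At 100 against 10 µM 0 were called (background 2.86%), and 6 had an unadjusted p under 0.05 (5 higher, 1 lower), against 36.2%. DESeq2 there called NDUFS7, lower, against a background of 11.8%. It gave no adjusted p for 9, 2 and 8 of the 17 in the 3 comparisons, in the order given. Genes without an adjusted p count as not called in these shares. The smallest adjusted p among the members was 0.127, 0.256 and 0.129 in the 3 comparisons under edgeR. For a gene at 0 in a group the fitted fold change depends on the prior count, so bounds from the pooled counts are given instead where the level of the other group exceeds that of 3 counts, and otherwise no fold is given.

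**Figure D3:**
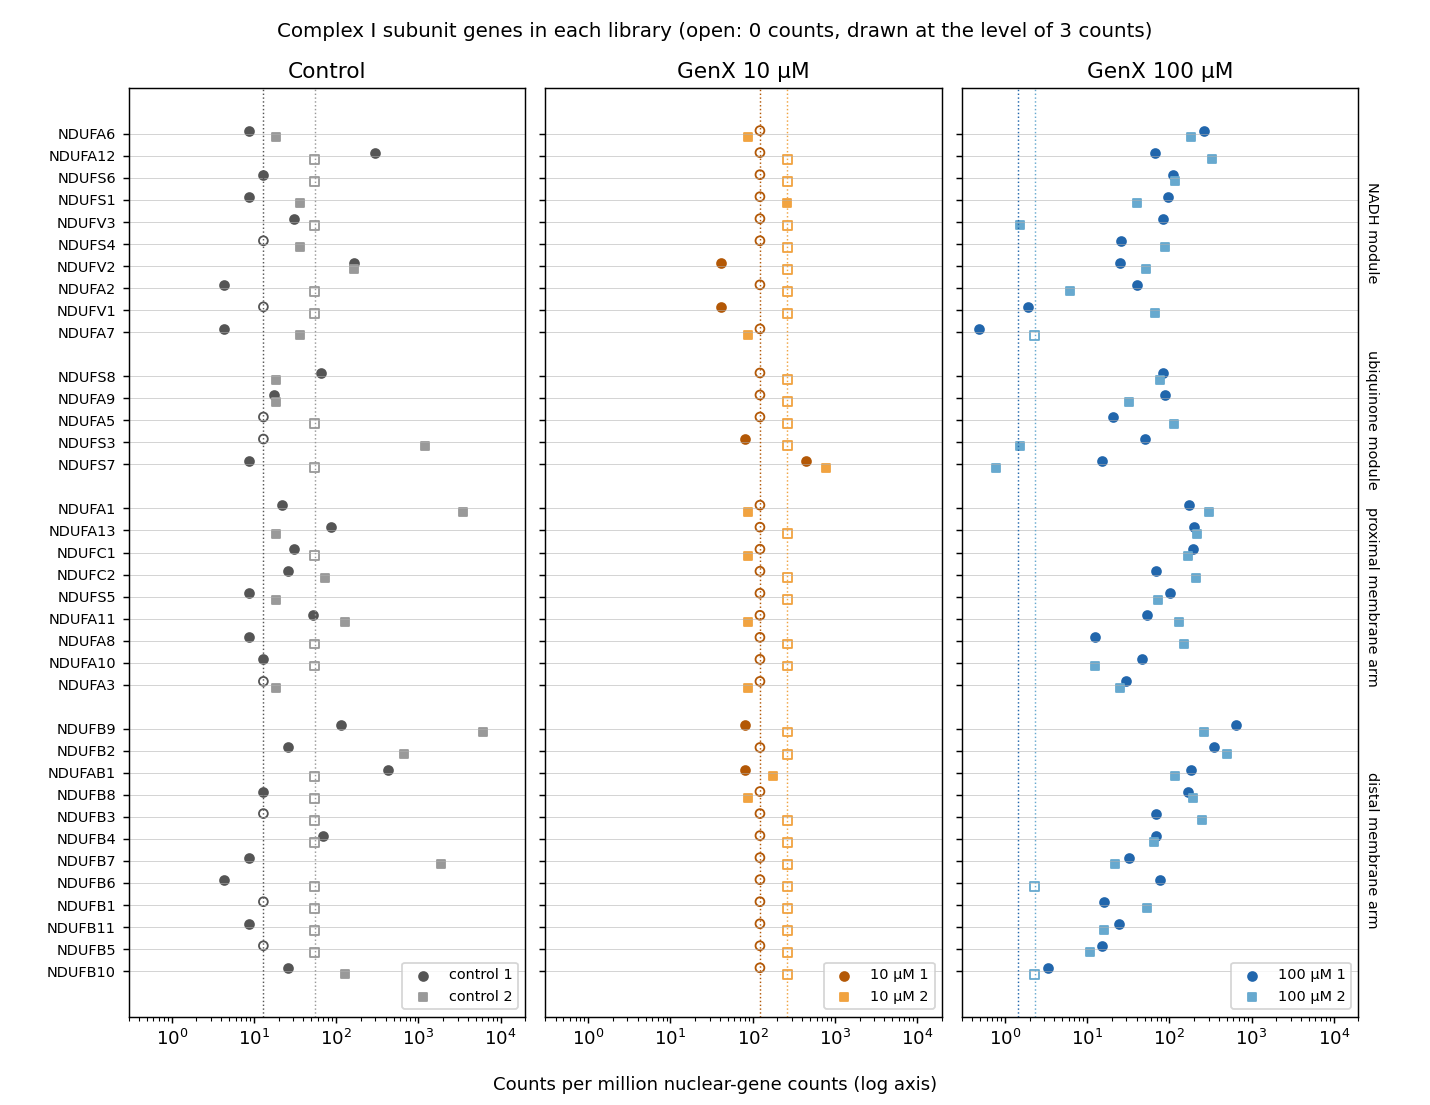
Level of each of the 36 subunit genes in every library, in nCPM (log axis), with genes grouped by module; open symbols are genes at 0 counts, drawn at the level of 3 counts, which the dotted lines mark. Most 10 µM symbols are open, and the 10 µM symbols of NDUFS7, at 449 and 789 nCPM, lie far to the right of its 100 µM symbols.

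The NADH module oxidises NADH and starts the transfer of electrons. Its 10 members together took 0.0530% and 0.0294% of nuclear-gene counts for the control pair, 0.00816% and 0.0438% for the 10 µM pair, and 0.0720% and 0.0888% for the 100 µM pair. Both 100 µM libraries lay above all the others. It was the one module of the 4 in which 100 µM exceeded both controls, and the ratio of means was 1.95.

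NDUFA6, a supernumerary subunit of the LYR family that binds the acyl carrier protein, was the NADH module member with the most counts. It held 2 and 1 counts in the control libraries, 0 and 1 with 10 µM GenX, and 553 and 241 with 100 µM, or 8.69 and 18.3, 0 and 87.7, and 268 and 186 nCPM. The 100 µM libraries stood above all the others. Pooled counts gave a level 22.4 times control at 100 µM (counting interval 7.65 to 109), and the fitted log2 fold change was 3.66 ± 1.56 (SE, edgeR adjusted p = 0.256). Against 10 µM the fitted value was 3.55 ± 1.75 (edgeR adjusted p = 0.155).

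NDUFA12, a supernumerary subunit of the matrix arm, was uneven between replicates. It held 68 counts in control 1, 0 in control 2, 0 and 0 at 10 µM, and 137 and 426 at 100 µM. In nCPM the controls were at 295 and 0 and the 100 µM libraries at 66.4 and 329, so control 1 lay between the 100 µM libraries. The 100 µM level was at least 2.01 times that at 10 µM on pooled counts, with 3 counts standing for the 10 µM group, and 10 µM was at least 2.86-fold lower than control. The second bound comes from control 1 alone. The log2 fold change at 100 µM against control was -0.44 ± 1.92 (edgeR adjusted p = 0.923).

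NDUFV2 and NDUFV1 are the core flavoprotein pair that holds the first redox centres, and NDUFV3 is an accessory subunit beside them. NDUFV2 held 38 and 9 counts for the control pair, 1 and 0 for the 10 µM pair, and 52 and 68 for the 100 µM pair, or 165 and 165, 40.8 and 0, and 25.2 and 52.6 nCPM. Its levels in the controls were close to equal, and they exceeded both 100 µM libraries 4.62-fold on pooled counts (interval 3.23 to 6.52). The fitted log2 fold change at 100 µM against control was -2.65 ± 1.37 (edgeR adjusted p = 0.330). NDUFV1 was at 0 in both controls and held 1 and 0 counts for the 10 µM pair, and 4 and 87 for the 100 µM pair. NDUFV3 had 7 and 0, 0 and 0, and 172 and 2. For both, 1 of the 100 µM libraries supplied nearly all counts.

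NDUFS1 carries the iron-sulfur clusters that follow the flavin. It held 2 and 2 counts in the control libraries, 0 and 3 with 10 µM GenX, and 199 and 53 with 100 µM. Its 100 µM libraries exceeded both controls, and the fitted log2 fold change was 1.37 ± 1.54 (edgeR adjusted p = 0.653). The accessory subunits NDUFS6 and NDUFS4 help to assemble this module. NDUFS6 had 3 and 0, 0 and 0, and 231 and 150 counts, a 100 µM level 10.8 times control (interval 3.66 to 52.4) and at least 1.36 times 10 µM. NDUFS4 had 0 and 2, 0 and 0, and 53 and 114, or 7.08 times control (1.93 to 58.9). The 100 µM libraries lay above both controls for NDUFS6 and overlapped them for NDUFS4. NDUFA2, a small subunit with a thioredoxin-like fold, had 1 and 0, 0 and 0, and 84 and 8. For NDUFA7 the counts were 1 and 2, 0 and 1, and 1 and 0. NDUFA2 was thus higher in both 100 µM libraries than in both controls, but at 40.7 and 6.18 nCPM under the level of 3 counts in control 2. NDUFA7, lower in both 100 µM libraries than in both controls, had the fewest counts of any member over the 100 µM pair.

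The ubiquinone module carries electrons from the last iron-sulfur cluster to ubiquinone. It was the one module that was lower at 100 than at 10 µM. Its 5 members took 0.00912% and 0.125% of nuclear-gene counts for the control pair, 0.0531% and 0.0789% for the 10 µM pair, and 0.0259% and 0.0226% for the 100 µM pair. A single gene, NDUFS7, supplied 20 of the 22 ubiquinone module counts at 10 µM.

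NDUFS7 (ENSG00000115286, GRCh38 chr19:1383527-1395589, plus strand) encodes the core subunit that holds the iron-sulfur cluster next to ubiquinone. It ran against most other members. It held 2 and 0 counts for the control pair, 11 and 9 for the 10 µM pair, and 31 and 1 for the 100 µM pair. In nCPM these were 8.69 and 0, 449 and 789, and 15.0 and 0.773. Both 10 µM libraries stood above the level of 3 counts and above all 4 other libraries, although they were the shallowest. Pooled counts gave a level at 10 µM 79.3 times control (counting interval 19.3 to 700) and 58.5 times that at 100 µM (31.7 to 105). These intervals leave out the spread between libraries. In the fit across libraries the log2 fold change was 5.17 ± 1.95 at 10 µM against control (edgeR adjusted p = 0.152, higher in 2 of 2 libraries) and -5.50 ± 1.79 at 100 against 10 µM (edgeR adjusted p = 0.129). NDUFS7 was singled out after its values were seen. As 1 of 36 members it makes up 2.78%. Over all nuclear protein-coding genes with a count, 4.31% were higher in both 10 µM libraries than in both controls. There 3.37% were lower at 100 than at 10 µM without overlap. Among complexes II to V 3 of 43 genes (6.98%) were higher in both 10 µM libraries than in both controls. The exons of NDUFS7 overlap those of 2 antisense genes, and both antisense genes were at 0 in every library. With NDUFS7 left out, the pooled share of the other 35 genes at 10 µM was 0.0326% and 0.105%, below both controls. The ratio of these 35 genes to control was then 0.0878 rather than 0.167, and the 100 µM mean was 5.37 times the 10 µM mean rather than 2.83 times. NDUFS7 was left out for its 10 µM counts, which lowers the 10 µM share by construction. These values are thus no comparison of the groups.

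**Figure D4:**
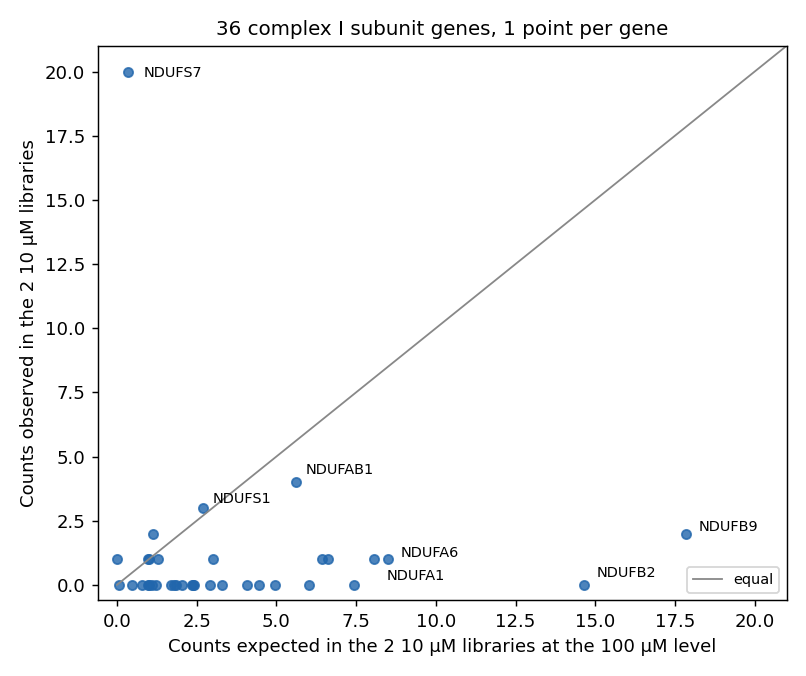
Counts observed in the 10 µM libraries together (vertical axis) against the counts that the pooled 100 µM level would give at the same nuclear-gene total (horizontal axis), 1 point per subunit gene; the line marks equality. NDUFS7 lies at 20 observed against 0.342 expected, and NDUFB9 and NDUFB2 lie at 2 against 17.8 and 0 against 14.6.

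The remaining members were sparse at 10 µM beyond what the depth alone would give at the 100 µM level. At the pooled 100 µM level the 10 µM libraries would have held 131.5 subunit counts, and they held 40. Without NDUFS7 the numbers were 131.2 and 20. Of the 29 genes for which at least 1 count was expected, 18 had 0, and 31 of the 36 were below the expected number. The 5 above it were NDUFS7, NDUFS1, NDUFS3, NDUFV1 and NDUFA7, and of these only NDUFS7 had 5 or more counts. These numbers were not computed over all genes. Other genes were sparse at 10 µM too. At 100 against 10 µM the median fitted log2 fold change was 3.63 for the members tested and 3.52 for all genes tested. Pooled shares at 100 µM were 5.28 times those at 10 µM for complexes II to V and 9.79 times for cytosolic ribosomal protein genes, sets described below.

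NDUFS3 and NDUFS8 are the other core subunits of the ubiquinone module in the list, and NDUFA9 and NDUFA5 are accessory subunits of the matrix arm. NDUFS3 had 0 and 66 counts in the control libraries, 2 and 0 with 10 µM GenX, and 105 and 2 with 100 µM. In the controls and at 100 µM alike, nearly all of its counts came from 1 of the 2 libraries. NDUFS8 had 15 and 1, 0 and 0, and 173 and 101 counts, or 65.2 and 18.3 nCPM in the control libraries and 83.8 and 78.1 with 100 µM, with a log2 fold change of 0.13 ± 1.29 at 100 µM against control (edgeR adjusted p = 0.969). NDUFA9 had 4 and 1, 0 and 0, and 182 and 42, a 100 µM level 3.80 times control (1.60 to 11.8). NDUFA5 was at 0 in all 4 control and 10 µM libraries and had 43 and 147 counts at 100 µM, at least 5.37-fold higher than control. All of these except NDUFS3 were higher in both 100 µM libraries than in both controls. NDUFA9 in the second 100 µM library (32.5 nCPM) and NDUFA5 in the first (20.8) lay under the level of 3 counts in control 2.

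The proximal membrane arm joins the matrix arm to the pumps. Its 9 members took 0.0248% and 0.378% for the control pair, 0% (which allows up to 0.0151%) and 0.0351% for the 10 µM pair, and 0.0883% and 0.130% for the 100 µM pair. The 100 µM libraries lay between the controls and above both 10 µM libraries.

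NDUFA1, a small single-span membrane subunit, set the high end of the arm. It held 5 and 192 counts in the control libraries, 0 and 1 with 10 µM GenX, and 357 and 396 with 100 µM, or 21.7 and 3523, 0 and 87.7, and 173 and 306 nCPM. The controls differed 162-fold, on both sides of the 100 µM pair. Its log2 fold change was -6.73 ± 2.34 at 10 µM against control (edgeR adjusted p = 0.146), -3.10 ± 1.77 at 100 µM against control (0.371) and 3.63 ± 2.23 at 100 against 10 µM (0.229). Without control 2 the value at 100 µM against control turned to 2.85.

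NDUFA13, also known for a role in cell death signalling, was steadier at 100 µM. It held 20 and 1 counts for the control pair, 0 and 0 for the 10 µM pair, and 412 and 284 for the 100 µM pair, or 86.9 and 18.3, 0 and 0, and 200 and 219 nCPM. Both 100 µM libraries were above both controls, 2.81 times on pooled counts (1.82 to 4.57), and at least 2.48-fold above 10 µM. Its log2 fold change against control was 1.17 ± 1.43 (edgeR adjusted p = 0.686).

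NDUFC1, a small membrane subunit, held 7 and 0 counts in the control libraries, 0 and 1 with 10 µM GenX, and 401 and 218 with 100 µM. In nCPM the 100 µM libraries were at 194 and 168 and the controls at 30.4 and 0, a ratio of 7.50 on pooled counts (3.62 to 18.7). The log2 fold change was 2.50 ± 1.54 (edgeR adjusted p = 0.402). NDUFC2, its partner, had 6 and 4, 0 and 0, and 143 and 275 counts. In NDUFC2 the higher control (73.4 nCPM) exceeded the lower 100 µM library (69.3), so these groups overlapped. Against 10 µM its 100 µM level was at least 1.49-fold higher.

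The other proximal members followed several patterns. NDUFS5, an intermembrane-space subunit with paired cysteines, had 2 and 1, 0 and 0, and 213 and 95 counts, and NDUFA3 had 0 and 1, 0 and 1, and 62 and 33. Both were higher in both 100 µM libraries than in both controls, 8.70 times (2.95 to 42.4) and 8.05 times (1.41 to 321). Against 10 µM the NDUFS5 level was at least 1.10-fold higher. NDUFA8, another such cysteine-paired subunit, had 2 and 0, 0 and 0, and 26 and 195 counts, a 12.0-fold difference between the 100 µM replicates. NDUFA11, a multi-span membrane subunit, had 12 and 7, 0 and 1, and 111 and 172 counts, and NDUFA10, which has a nucleoside kinase fold, had 3 and 0, 0 and 0, and 97 and 16. Both of the latter overlapped between control and 100 µM.

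The distal membrane arm holds the last proton pumps. With 12 members it took 0.0699% and 0.883% for the control pair, 0.0163% and 0.0263% for the 10 µM pair, and 0.165% and 0.149% for the 100 µM pair. Both 10 µM libraries were below all 4 others, and the 100 µM mean was 7.37 times the 10 µM mean.

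NDUFB9, an LYR-family subunit like NDUFA6, had the most counts of any member over the 6 libraries. It held 26 and 335 counts in the control libraries, 2 and 0 with 10 µM GenX, and 1330 and 338 with 100 µM, or 113 and 6147, 81.6 and 0, and 644 and 261 nCPM. It was lower in both 10 µM libraries than in all the others, and its controls enclosed the 100 µM pair. The control 1 level lay under the level of 3 counts in both 10 µM libraries (122 and 263 nCPM). That of the second 100 µM library lay under the higher of these limits. The log2 fold change was -6.70 ± 1.99 at 10 µM against control (edgeR adjusted p = 0.127), -3.02 ± 1.56 at 100 µM against control (0.330) and 3.68 ± 1.83 at 100 against 10 µM (0.159). Without control 2 the value at 100 µM against control turned to 1.38.

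NDUFB2, a single-span subunit, was the member whose absence at 10 µM was best resolved by depth. It held 6 and 36 counts for the control pair, 0 and 0 for the 10 µM pair, and 715 and 655 for the 100 µM pair, or 26.1 and 661, 0 and 0, and 346 and 506 nCPM. The 100 µM level was at least 4.88-fold above 10 µM, the largest such bound among the members. Between 100 µM and control its log2 fold change was 0.09 ± 1.62 (edgeR adjusted p = 0.984), and DESeq2's scaling turned it to -0.40.

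NDUFAB1 is the mitochondrial acyl carrier protein, which also serves fatty acid and iron-sulfur cluster synthesis. It held 99 and 0 counts in the control libraries, 2 and 2 with 10 µM GenX, and 376 and 150 with 100 µM, or 430 and 0, 81.6 and 175, and 182 and 116 nCPM. It was the only member besides NDUFS7 with a count in both 10 µM libraries, and its 10 and 100 µM libraries overlapped. The log2 fold changes were -2.39 ± 2.04 at 10 µM (edgeR adjusted p = 0.416) and -1.40 ± 1.83 at 100 µM (0.708), both against control, and 1.00 ± 1.99 between the doses (0.714). Without control 1 both values against control turned positive, to 8.01 and 9.72, with control 2 at 0.

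NDUFB7, an intermembrane-space subunit, held 2 and 103 counts for the control pair, 0 and 0 for the 10 µM pair, and 66 and 28 for the 100 µM pair. Its controls differed 218-fold in nCPM, the widest gap of any member. Its level at 10 µM was at least 4.41-fold below control on pooled counts, a bound that rests on control 2.

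NDUFB3, NDUFB1 and NDUFB5 are small membrane-anchored subunits that had 0 counts in all 4 control and 10 µM libraries. NDUFB3 had 141 and 322 counts at 100 µM (68.3 and 249 nCPM), at least 13.1-fold above control and at least 1.65-fold above 10 µM. NDUFB1 had 33 and 69, at least 2.88-fold above control. NDUFB5 had 31 and 14, at least 1.27-fold above control. These bounds take 3 counts over both libraries of the group at 0.

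NDUFB8, whose protein is often used as an indicator of assembled complex I, held 3 and 0 counts in the control libraries, 0 and 1 with 10 µM GenX, and 353 and 249 with 100 µM. Its 100 µM levels of 171 and 192 nCPM were 17.0 times control on pooled counts (5.79 to 82.7), and the log2 fold change was 3.61 ± 1.60 (edgeR adjusted p = 0.269). NDUFB4 had 16 and 0, 0 and 0, and 142 and 85 counts, and its control 1 level of 69.5 nCPM slightly exceeded both 100 µM libraries (68.8 and 65.7). NDUFB11, encoded on the X chromosome, had 2 and 0, 0 and 0, and 51 and 21, higher in both 100 µM libraries than in both controls. Its 100 µM levels of 24.7 and 16.2 nCPM lay under the level of 3 counts in control 2. NDUFB6, a single-span subunit, had 1 and 0, 0 and 0, and 158 and 0, so all of its 100 µM counts came from 1 library. NDUFB10, a cysteine-paired subunit of the intermembrane space, had 6 and 7, 0 and 0, and 7 and 0, and was higher in both controls than in both 100 µM libraries, 21.9 times on pooled counts (8.12 to 64.8).

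Agreement between replicates could be judged for most members only at 100 µM. There 33 members had a count in both libraries, with a median difference of 2.35-fold, and 15 of them lay within 2-fold and 8 beyond 4-fold. NDUFV3 (53.9-fold), NDUFV1 (34.7-fold) and NDUFS3 (32.9-fold) differed most. In the controls 15 members had a count in both libraries, with a median difference of 4.22-fold, and 16 had counts in 1 library only. At 10 µM the 2 members with counts in both libraries, NDUFS7 and NDUFAB1, differed by a median of 1.95-fold and at most 2.15-fold, and 12 had counts in 1 library only. Over the 36 genes, levels in the replicates correlated at a Spearman rho of 0.587 at 100 µM, 0.191 in the controls and 0.152 at 10 µM. These correlations run across genes, which are not independent replicates, and they move with depth.

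Per kilobase of exon, the 100 µM libraries placed NDUFA1 first, at a mean of 313 nCPM per kilobase, followed by NDUFB9 (172), NDUFS5 (161), NDUFA6 (160) and NDUFB3 (144). The last 4 of these differ by less than their replicates do, and the libraries of NDUFA1 and NDUFB9 overlap. At the other end lay NDUFA7 (0.171), NDUFS7 (1.05), NDUFB10 (1.58) and NDUFB5 (2.20). The 6 core subunits in the list ranged from 1.05 (NDUFS7) to 17.9 (NDUFS8), while 30 supernumerary subunits ran from 0.171 to 313. Exon length was taken over all annotated transcripts, which lowers the value of genes with many long variants.

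Other gene sets were compared to see where complex I differed. The 43 nuclear genes of complexes II to V took 0.417% and 1.01% of nuclear-gene counts in the control libraries, 0.0898% and 0.263% with 10 µM GenX, and 0.899% and 0.965% with 100 µM. Per 100 of their counts, complex I subunits had 37.6 and 139 for the control pair, 86.4 and 70.0 for the 10 µM pair, and 39.0 and 40.5 for the 100 µM pair. Both 10 µM values exceeded both 100 µM values, and the controls enclosed them all. Without NDUFS7, which was singled out for its high level at 10 µM, the 10 µM values were 36.4 and 40.0. They rest on 8 subunit counts against 22 of complexes II to V and on 12 against 30, and no gene was taken out of complexes II to V. Mitochondrial ribosomal protein genes, 78 in all, took 0.138% and 0.312%, 0.0775% and 0.105%, and 0.272% and 0.303%. They too were lower in both 10 µM libraries than elsewhere. The 84 cytosolic ribosomal protein genes, whose products build the ribosomes outside the organelle, took 4.13% and 7.04%, 0.428% and 0.701%, and 5.17% and 5.89%. Their 100 µM mean was 9.79 times the 10 µM mean, and their 10 µM mean was 0.101 times control. Per 100 of their counts, complex I subunits had 3.79 and 20.1 for the control pair, 18.1 and 26.3 for the 10 µM pair, and 6.79 and 6.64 for the 100 µM pair, so this ratio was higher at 10 than at 100 µM. Among complexes II to V 34 of 43 genes (79.1%) were higher at 100 than at 10 µM without overlap and 1 was lower, against 69.4% and 2.78% of the complex I genes. The difference between the 2 sets was not tested.

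Against the 7 complex I genes of mtDNA the balance was the other way round, lower at 10 than at 100 µM. Per 100 counts on those genes, the nuclear subunit genes had 8.94 and 29.3 in the control libraries, 0.203 and 0.243 with 10 µM GenX, and 33.7 and 42.4 with 100 µM. Here the 3 groups did not overlap, and the 10 µM pair lay close together. This ratio is taken within a library and does not depend on its scaling. The mtDNA share, 43.7% and 61.1% at 10 µM against 3.58% and 3.32% at 100 µM, enters it for any nuclear set. At 10 µM the cytosolic ribosomal protein genes had 105 and 80 counts, beside 9378 and 8657 on these mtDNA genes. At 100 µM they had 106746 and 76167, beside 21519 and 11921, so the shift was not particular to complex I. The part that the lower MALAT1 and hepatocyte marker levels at 10 µM have in this ratio was not tested.

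Assembly factors build the complex without staying in it. Of 18 such genes 0 had enough counts to be tested in edgeR, so no call or p is given. They took 0.0191% and 0.0128% for the control pair, 0% (up to 0.0151%) and 0.123% for the 10 µM pair, and 0.0227% and 0.0408% for the 100 µM pair. The 10 µM value rests on NDUFAF3, a matrix assembly factor, with 12 of 14 counts in that library and counts of 7 and 2 in the control libraries, 0 and 12 with 10 µM GenX, and 40 and 46 with 100 µM. COA1 had 0 and 0, 0 and 1, and 95 and 114 counts, and NDUFAF2 had 0 and 0, 0 and 0, and 123 and 59. Without overlap, 6 of the 18 were higher at 100 µM than in the controls, 33.3% against the background of 31.4%, and 11 were higher than at 10 µM, 61.1% against 42.3%.

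Copies of subunit genes elsewhere in the genome took a larger part at 10 µM. Of 54 annotated pseudogenes of the 36 genes, chosen after values were seen, the summed counts were 8 and 0 for the control pair, 7 and 6 for the 10 µM pair, and 5 and 22 for the 100 µM pair. As a share of pseudogene and subunit counts together, they made up 2.17% (0.940 to 4.23) and 0% (up to 0.477), then 26.9% (11.6 to 47.8) and 22.2% (8.62 to 42.3), then 0.0690% and 0.433%. The 10 µM intervals do not overlap those of any other library. Processed pseudogenes of all kinds took 3.29% and 3.30% of nuclear-gene counts at 10 µM and between 0.280% and 0.644% elsewhere. In the first 10 µM library 6 of the 7 counts fell on NDUFB5P2, on chromosome X, while its parent NDUFB5 had 0. In the second, 5 of the 6 fell on NDUFA3P3, on chromosome 1, while NDUFA3 had 1.

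The 60-base stretch of each alignment with the most differences shows where reads could best tell these copies from their parents. No other ungapped stretch of that length differs more, so these are the most favourable cases. Sequences are from GENCODE v29 transcripts (GRCh38), with the differing bases in capitals.
NDUFB5P2: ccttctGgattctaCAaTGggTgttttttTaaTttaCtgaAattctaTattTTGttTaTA
NDUFB5: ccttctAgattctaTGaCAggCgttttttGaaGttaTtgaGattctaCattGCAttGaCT
NDUFA3P3: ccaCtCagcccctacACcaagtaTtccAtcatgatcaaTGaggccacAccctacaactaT
NDUFA3: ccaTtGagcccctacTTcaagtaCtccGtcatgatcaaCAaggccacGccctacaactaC
The first pair differs at 17 of the 60 bases and the second at 10. Over the whole alignment NDUFB5P2 matched the coding sequence of its parent at 80.9% of 555 bases, and NDUFA3P3 at 87.5% of 248. How reads that map to several places were counted is not given in the sources used here.

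Overlapping genes limit some values. The exons of 20 of the 36 genes overlap those of another annotated gene, 11 on the same strand and 16 on the opposite strand, some on both. NDUFA7 overlaps the ribosomal protein gene RPS28 on the opposite strand, which held 331 and 225 counts at 100 µM where NDUFA7 held 1 and 0. The strand setting used in counting and the handling of reads that touch both genes are not given in the sources used here, so counts of these 20 genes are less certain.

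Nuclear respiratory factor 1 (NRF1) is known to bind promoters of many respiratory chain genes, so promoters of the members were searched for its site. RefSeq windows (GRCh38.p14, 250 bases before to 50 after each start) were matched for 32 of the 36 genes. Its palindromic site of 10 bases, in capitals in the first 2 sequences below, was found, on either strand, in 2 of the 32 (6.25%), against 1.52% of 27305 genes. The same site with 1 base left free, which includes the palindrome, was found in 6 (18.8%), against 6.98%. The 30 bases around 1 or 2 of the matches in each of the 6 genes are shown on the strand of the gene, with the match in capitals, because these are the members that share this feature. NDUFA8 and NDUFB4 held further matches of the freer form, and the one in NDUFA8 overlaps the match shown.
NDUFA8: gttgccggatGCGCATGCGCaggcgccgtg
NDUFB4: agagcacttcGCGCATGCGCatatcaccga
NDUFA9: ttcttggttaGCGCTTGCGCagacaggcga
NDUFA11: ccggtccccgGCGCGTGCGCgcgatccatg
NDUFA12: acctagctctGCGCACGCGCagagccacca
NDUFA3, farther: ctgcgcgagtGCGCACGCGCaggctccgaa
NDUFA3, nearer: gtgctccaggGCGCACGCGCagccctggga
They lie at chr9:122159764-122159793 (minus strand), chr3:120596167-120596196 (plus), chr12:4649024-4649053 (plus), chr19:5903869-5903898 (minus), chr12:95003794-95003823 (minus), chr19:54102675-54102704 (plus) and chr19:54102772-54102801 (plus), in the order shown. The 6 genes showed no common pattern across the libraries: NDUFA3, NDUFA8 and NDUFA9 were higher at 100 µM than in both controls, and NDUFA11, NDUFA12 and NDUFB4 overlapped. The limit from the depth of control 2 given above applies to the higher ones. NDUFS7 had no match. Other motifs, searched on both strands, were CCGGAAGT (ETS factors) in 2 members (6.25% against 4.95%), the YY1 site in 2 (6.25% against 1.04%), GGGGCGGGG (SP1) in 6 (18.8% against 18.4%) and TATAAA (the TATA box) in 3 (9.38% against 14.0%). A match describes the letters only.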

How the data were processed

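Per the submitters' processing notes, the authors used FastQC, STAR, featureCounts and DESeq2 with GRCh38. Versions, annotation release, strand setting and handling of overlapping or multiply mapped reads are not given in the sources used here. The values are the deposited raw counts per gene, whole numbers, 1 table per library, with 0 lines that name no gene and 0 columns without a sample. Of the 57500 identifiers 56898 were matched to a symbol in GENCODE v29. The members and all gene lists were chosen with earlier results of these data known.

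Genes were tested with edgeR 4.0.16 in R 4.3.3: filterByExpr by group, TMM scaling, robust quasi-likelihood fits of all 6 libraries as group means, two-sided, with Benjamini-Hochberg adjustment over the 3180 genes kept and a threshold of 0.05. The 36 members were all open to naming. The 8 with the highest pooled count were to be given with their fitted values, as were members at 0 in 1 group with at least 10 counts in each library of another. For most of the latter, bounds are printed in place of fitted folds, and no fold is given where both groups were at or under the level of 3 counts. Bounds set 3 counts over a group's nuclear-gene total, and ratios of pooled counts carry exact 95% counting intervals. Library totals ran from 29350 to 2141282, so limits at 10 µM are coarse. Detection at equal depth used the hypergeometric expectation. The fit was tested on simulated data: it recovered most changed genes where simulated replicates were close, and few or none, even of large changes, at a dispersion near the common value of 0.882 estimated from these libraries. Alternatives were DESeq2 1.42.0 (its size factors in edgeR, and its Wald test), library sizes alone, TMM without mtDNA genes, no filter on counts, a minimum mean of 5 CPM, fits to the 4 libraries of a comparison, the replicate number as a block, and each library left out. Shares were also computed with other denominators, and, added after the data were seen, without NDUFS7 and without the 4 leading members of each library. Tables, intervals and plots used Python 3.11.15 with pandas 2.3.3, numpy 2.4.6, scipy 1.17.1, Biopython 1.88 and matplotlib 3.10.9.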

Additional observations from a re-analysis of the deposited data

How the results depend on the processing

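Of the counts of called subunit genes, 32 stayed at the original value under the alternatives and 10 did not. Shares in parentheses are of all genes tested under the same setting. The subunit count at 10 µM against control, 0 in edgeR, was 3 with DESeq2's Wald test (16.5%), 1 with a mean of at least 5 CPM (NDUFB9, 0.761%), 1 with only the 4 libraries compared (NDUFS7, the 1 subunit gene tested, 45%) and 0 to 4 when single libraries were left out. Without control 1 these were NDUFA1, NDUFB2, NDUFB7 and NDUFB9, all lower (12.8%), and without control 2 NDUFA12 and NDUFAB1, both lower (12.6%). At 100 µM against control it was 1 with DESeq2 (6.92%) and 0 to 3 with libraries left out, the 3 (NDUFA1, NDUFB7 and NDUFB9, all lower) without control 1 (3.88%). At 100 against 10 µM it was 1 with DESeq2 (11.8%) and 0 to 4, with 4 higher without control 1 (36.1%) and 4 higher without control 2 (18.6%). With libraries left out, a lone sample is assumed to vary like the other groups. The assembly factor count was 0 in the 29 alternatives that tested any of these genes, and in the other 13 none was tested.

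The pooled share at 100 µM against control, a ratio of 0.472, reversed to 2.35 without the 4 leading members of each library, which by construction lowers control 2 the most, became 0.921 with counts summed over a group, and ranged from 0.262 to 2.37 with libraries left out. At 100 against 10 µM the ratio of 2.83 became 6.22 with all gene counts as the denominator, 5.37 without NDUFS7 and 7.50 without the 4 leading members. It ranged from 2.01 to 4.78 with libraries left out. Leaving out NDUFS7, picked for its 10 µM counts, raises that ratio by construction. At 10 µM against control the ratio of 0.167 became 0.280 with counts summed over a group and ranged from 0.0925 to 0.834. Detected members at the shallowest total numbered 14.0 in control 1. At the shallowest nuclear-gene total they numbered 8.78 in control 1, 10.5 in control 2, and 17.9 and 18.6 with 100 µM. With at least 3 counts required they numbered 18 in control 1, 9 in control 2, and 1 and 2 with 10 µM.

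Of the fold changes of named genes, 247 kept their direction and side of the threshold, 14 kept their direction and passed the threshold, and 24 reversed, none of these past the threshold. At 100 µM against control NDUFB2 turned to -0.40 with DESeq2 size factors and -0.41 with DESeq2. NDUFA12 turned to 0.38 with library sizes alone, 0.071 without a filter and 0.38 with at least 5 CPM. NDUFS7 turned to 0.39, 0.32 and 0.73 under the same settings. NDUFA6 at 10 µM against control turned to -0.44 without a filter and -0.63 with at least 5 CPM. With single libraries left out, values at 100 µM against control ran from -3.38 to 1.38 for NDUFB9, -0.28 to 3.42 for NDUFB2, -3.53 to 2.85 for NDUFA1, -1.40 to 10.1 for NDUFA12, -2.14 to 9.72 for NDUFAB1 and -2.57 to 5.56 for NDUFS7. At 10 µM against control they ran from -6.36 to 0.84 for NDUFA6, -3.96 to 8.01 for NDUFAB1 and -7.23 to 6.10 for NDUFC1. The cause was not tested.

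Same-numbered libraries showed no shared shift: their deviations correlated across genes at 0.00146, 0.00328 and -0.0224. With 2 libraries per group of very unlike depth, this cannot show whether they were paired in the experiment. With the replicate number as a block the subunit count stayed at 0 in every comparison, calls over all genes went from 19, 0 and 91 to 73, 22 and 137, and NDUFA12 at 100 µM against control turned to 0.71. With 2 libraries per group and at most 21 subunit counts in a 10 µM library, differences at that dose below the level of 3 counts were not detectable.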
